A study of Homo sapiens with 12 samples.

Results

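The 10 genes described here encode the KMT2 family and other large SET-domain proteins, most of them lysine methyltransferases of histone H3, namely KMT2A, KMT2B, KMT2C, KMT2D, KMT2E, SETD2, NSD1, NSD2, NSD3 and ASH1L. They were chosen by name for their long mRNAs, with earlier results of these data known. All 10 were found among the 67049 gene IDs of the deposited count files. All 10 also passed the filter on low counts, which kept 20394 genes. The RNA came from HEK293T, an established human line of embryonic kidney origin, collected 48 h after a pIRES2 plasmid with SF3B1 was delivered to the cells by lipid transfection. SF3B1 is the U2 snRNP subunit that holds the branch point during splicing, and K700E is a substitution recurrent in blood cancers. The 4 groups were the cytoplasm of K700E-transfected cells, the cytoplasm of WT-transfected cells, the nuclei of K700E-transfected cells and the nuclei of WT-transfected cells, with 3 libraries each. All groups keep the endogenous SF3B1 of the line, since both constructs were added to it, and no untransfected cells were analysed here.

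Apart from KMT2E, the proteins of the group are known to write methyl marks on histone H3. KMT2A and KMT2B work with menin mainly at promoters, and KMT2C and KMT2D work with the demethylase KDM6A mainly at enhancers. They methylate lysine 4 of histone H3 in complexes that share the WDR5, RBBP5, ASH2L and DPY30 core. KMT2E carries a related SET domain but is not known as an enzyme of that mark. SETD2 trimethylates lysine 36 of histone H3 behind elongating RNA polymerase II, while NSD1, NSD2, NSD3 and ASH1L add the lower methylation states of the same residue. KMT2A is the gene broken in the rearrangements of infant leukaemia, and NSD2 is the gene activated by a recurrent translocation of multiple myeloma.

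Libraries held 13422598 to 18116929 counts in the cytoplasm and 9086743 to 11200562 in the nuclei. The 10 genes together took 0.122% to 0.153% of the cytoplasmic counts and 0.260% to 0.323% of the nuclear counts. The lowest count of any of them in a library was 572, for KMT2B, and the highest was 6186, for KMT2A. Levels are given as CPM scaled by TMM, which express a gene's count as a share of the RNA sequenced in that library. A cytoplasm-to-nucleus ratio is therefore a ratio of shares, and fewer cells and less RNA per cell cannot be told apart. Whether the RNA was selected for poly(A) tails is not stated in the labels. Counts per gene do not separate spliced from unspliced RNA, so a nuclear level can hold both. SF3B1 itself averaged 7924 ± 882 CPM in K700E cytoplasm and 9430 ± 1061 in WT cytoplasm, and 1600 ± 500 in K700E nuclei and 1577 ± 784 in WT nuclei (SD, n = 3 each). The fractions were told apart by NEAT1, MALAT1 and KCNQ1OT1, RNAs held in the nucleus, which fell in the cytoplasm in both constructs, and by the 13 mitochondrially encoded mRNAs, which all rose there. Of 6 HEK293 markers all 6 were detected, and they summed to 673 to 994 CPM in cytoplasmic libraries and 237 to 376 in nuclear ones. The 12 markers of other cell types summed to 2.48 to 4.79 CPM in cytoplasmic libraries and 12.7 to 26.0 CPM in nuclear ones. CD3E was at 0 in all 12 libraries. ALB had the most counts of these 12 markers, at 0.89 to 20.3 CPM. PAX2, a HEK293 marker, was at 4.41 to 9.82 CPM. Whether the libraries within a group stem from separate transfections is not stated in the labels, and p-values cover the spread among these libraries alone, possibly a technical one.

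The genes are long and contain many exons. On GRCh38 (GENCODE 29), KMT2A (ENSG00000118058.23) lies on chromosome 11 from 118436464 to 118526832 on the plus strand, with 36 exons in the transcript with the longest coding sequence. KMT2B (ENSG00000272333.7), on chromosome 19 from 35718019 to 35738878, is the shortest of the genes at 20.9 kb and has 37 exons. KMT2C (ENSG00000055609.21), on chromosome 7 from 152134922 to 152436005 on the minus strand, is the longest at 301.1 kb and has 59 exons. KMT2D (ENSG00000167548.17), on chromosome 12 from 49018975 to 49059774 on the minus strand, has 54 exons and the longest coding sequence of the genes, 16.6 kb. KMT2E (ENSG00000005483.21), on chromosome 7 from 105014179 to 105114361, has 27 exons. ASH1L (ENSG00000116539.14), on chromosome 1 from 155335268 to 155562807 on the minus strand, has 28, and SETD2 (ENSG00000181555.21), on chromosome 3 from 47016429 to 47163967 on the minus strand, has 21, the fewest. NSD1 (ENSG00000165671.21) lies on chromosome 5 from 177133025 to 177300215 with 23 exons. NSD2 (ENSG00000109685.19), on chromosome 4 from 1871424 to 1982207, has 24 exons, as has NSD3.

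The 250 bases before the RefSeq transcription start (GRCh38.p14) were available for 9 of the 10 genes and are shown for 5. KMT2C and KMT2A are shown because they had the lowest cytoplasm-to-nucleus ratios in K700E and in WT cells, NSD1 and SETD2 because they had the highest, and KMT2E because an antisense gene starts inside its window. Each is given on the strand of its gene, with capitals marking GGGCGG or its reverse complement, the GC box; matches that overlap each other were all counted.
KMT2C, chr7:152436004-152436253, minus strand: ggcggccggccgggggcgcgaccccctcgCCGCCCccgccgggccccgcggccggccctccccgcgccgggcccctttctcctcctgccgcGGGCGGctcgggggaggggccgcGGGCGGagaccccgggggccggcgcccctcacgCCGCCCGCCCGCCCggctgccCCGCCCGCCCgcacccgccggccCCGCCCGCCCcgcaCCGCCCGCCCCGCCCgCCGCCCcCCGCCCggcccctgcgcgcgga
KMT2A, chr11:118436242-118436491, plus strand: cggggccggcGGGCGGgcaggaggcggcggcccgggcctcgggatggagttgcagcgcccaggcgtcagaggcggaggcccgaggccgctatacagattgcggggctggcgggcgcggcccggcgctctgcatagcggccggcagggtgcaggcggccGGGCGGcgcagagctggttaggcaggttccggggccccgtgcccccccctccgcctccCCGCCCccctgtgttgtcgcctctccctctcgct
KMT2E, chr7:105013955-105014204, plus strand: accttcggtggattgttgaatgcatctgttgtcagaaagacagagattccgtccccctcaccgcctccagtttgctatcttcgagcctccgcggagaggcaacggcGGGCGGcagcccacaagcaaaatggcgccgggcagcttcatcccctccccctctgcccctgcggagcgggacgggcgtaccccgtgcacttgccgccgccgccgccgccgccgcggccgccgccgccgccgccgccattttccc
SETD2, chr3:47164114-47164363, minus strand: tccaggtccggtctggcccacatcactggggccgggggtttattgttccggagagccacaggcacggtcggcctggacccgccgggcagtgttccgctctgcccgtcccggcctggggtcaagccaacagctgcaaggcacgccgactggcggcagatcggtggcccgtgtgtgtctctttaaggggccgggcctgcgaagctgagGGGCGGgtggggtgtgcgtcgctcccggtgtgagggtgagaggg
NSD1, chr5:177132765-177133014, plus strand: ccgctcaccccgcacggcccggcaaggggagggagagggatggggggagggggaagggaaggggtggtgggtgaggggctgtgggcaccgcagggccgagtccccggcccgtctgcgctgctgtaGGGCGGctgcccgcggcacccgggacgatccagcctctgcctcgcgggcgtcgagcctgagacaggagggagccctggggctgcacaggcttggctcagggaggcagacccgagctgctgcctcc
All 9 windows held a GC box on at least one strand, with 15 matches in KMT2C, 6 in NSD2, 4 in KMT2B, 3 in KMT2A, 2 in KMT2D and 1 each in KMT2E, SETD2, NSD1 and ASH1L. Of 35116 RefSeq windows of the same length, 42.6% held one. CCAAT was found in NSD2 alone, against 32.0% of all windows, and TATAAA in none of the 9, against 10.7% of all windows. The windows held 19 to 50 CpG dinucleotides, against a median of 11 over all windows. In RefSeq, KMT2E and KMT2E-AS1 start 64 bases apart on opposite strands and run away from each other, while in GENCODE 29 their exons share 143 bases.

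KMT2A and KMT2B, the partners of menin, were lower in the cytoplasm of WT cells. KMT2A was at 186, 193 and 153 CPM in K700E cytoplasm, against 472, 441 and 412 in K700E nuclei. In WT cells KMT2A was at 191, 187 and 116 CPM in the cytoplasm, against 484, 438 and 503 in the nuclei. Every cytoplasmic library was thus below every nuclear one in both constructs. KMT2A fell by 1.32 ± 0.22 on the log2 scale in K700E cytoplasm (SE; edgeR quasi-likelihood test, Benjamini-Hochberg adjusted p = 6.5e-05), and by 1.53 ± 0.22 in WT cytoplasm (adjusted p = 1.53e-05). KMT2B was at 49.0, 45.2 and 86.0 CPM in K700E cytoplasm, against 114, 68.7 and 92.6 in K700E nuclei, and these values overlapped. In WT cells KMT2B was at 69.7, 55.1 and 70.7 CPM in the cytoplasm, against 137, 232 and 102 in the nuclei, which did not overlap. The KMT2B difference was -0.61 ± 0.31 in K700E cells (edgeR adjusted p = 0.0887) and -1.27 ± 0.31 in WT cells (adjusted p = 0.00188). In K700E cells KMT2B was called lower in 8 of 13 other settings and not called in 5. The 8 included the GC trend removed (-0.84, edgeR adjusted p = 0.000184) and the DESeq2 Wald test (-0.73, adjusted p = 0.0346). The K700E difference of KMT2B was -0.92 without cytoplasmic library 3 (adjusted p = 0.0196) and -0.37 without nuclear library 1 (adjusted p = 0.348), and without nuclear library 2 the WT difference was -0.83 (adjusted p = 0.0178).

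KMT2C and KMT2D, the enhancer enzymes, were also lower in the cytoplasm. KMT2C was at 133, 140.1 and 97.3 CPM in K700E cytoplasm, against 339, 493 and 349.7 in K700E nuclei. In WT cells KMT2C was at 144, 124 and 82.9 CPM in the cytoplasm, against 354, 266 and 312 in the nuclei. The fractions did not overlap in either construct. KMT2C fell by 1.67 ± 0.25 in K700E cytoplasm (edgeR adjusted p = 2.35e-05) and by 1.41 ± 0.25 in WT cytoplasm (adjusted p = 0.000112). KMT2D was at 74.9, 111 and 122 CPM in K700E cytoplasm, against 199, 113 and 176 in K700E nuclei. In WT cells KMT2D was at 123, 100.4 and 119 CPM in the cytoplasm, against 273, 191 and 205 in the nuclei. The K700E values of KMT2D overlapped, through nuclear library 2, and the WT values did not. KMT2D fell by 0.67 ± 0.25 in K700E cytoplasm (edgeR adjusted p = 0.0258) and by 0.97 ± 0.25 in WT cytoplasm (adjusted p = 0.00274). The K700E call was lost without cytoplasmic library 1 (-0.47, adjusted p = 0.138), nuclear library 1 (-0.44, adjusted p = 0.171) or nuclear library 3 (-0.57, adjusted p = 0.0946). KMT2C was at -0.79 in K700E and -0.64 in WT cells, and KMT2A at -0.45 and -0.77, with each library's trend with transcript length removed, and all 4 stayed called. In that setting KMT2D was at 0.37 in K700E cells (adjusted p = 0.207) and at -0.03 in WT cells (adjusted p = 0.933). The length slope was 0.018 to 0.283 log2 per doubling of length in nuclear libraries and -0.273 to -0.0849 in cytoplasmic ones. Values with the length trend removed are therefore relative to transcripts of similar length.

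KMT2E and ASH1L were lower in the cytoplasm as well. KMT2E was at 146, 128 and 122 CPM in K700E cytoplasm, against 198, 324 and 216 in K700E nuclei. In WT cells KMT2E was at 151, 131 and 119 CPM in the cytoplasm, against 192, 296 and 293 in the nuclei. No cytoplasmic library reached a nuclear one. KMT2E fell by 0.90 ± 0.23 in K700E cytoplasm (edgeR adjusted p = 0.00305) and by 0.96 ± 0.23 in WT cytoplasm (adjusted p = 0.00185). ASH1L was at 82.1, 107 and 72.7 CPM in K700E cytoplasm, against 176, 161 and 165 in K700E nuclei. In WT cells ASH1L was at 109, 109 and 80.5 CPM in the cytoplasm, against 202, 104 and 151 in the nuclei. The WT values of ASH1L overlapped through nuclear library 2, the K700E values did not. ASH1L fell by 0.94 ± 0.24 in K700E cytoplasm (edgeR adjusted p = 0.00295) and by 0.61 ± 0.24 in WT cytoplasm (adjusted p = 0.0341). With the length trend removed ASH1L was at -0.40 in K700E cells (adjusted p = 0.0911) and at -0.14 in WT cells (adjusted p = 0.545). The WT call of ASH1L was lost without any of 7 libraries: the 3 of WT cytoplasm (-0.67, -0.67 and -0.46 without libraries 1, 2 and 3), WT nuclear libraries 1 (-0.30, adjusted p = 0.279) and 3 (-0.57), and K700E nuclear libraries 1 (-0.56) and 3 (-0.57).

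The enzymes of lysine 36 other than ASH1L were closer to even between the fractions. SETD2 was at 159, 177 and 125 CPM in K700E cytoplasm, against 139, 108 and 166 in K700E nuclei. In WT cells SETD2 was at 157, 163 and 119 CPM in the cytoplasm, against 144, 117 and 138 in the nuclei. The difference of SETD2 was 0.16 (95% interval -0.30 to 0.62) in K700E cells and 0.14 (-0.32 to 0.60) in WT cells, with adjusted p = 0.533 and 0.588 by edgeR. NSD1 was at 244, 328 and 256 CPM in K700E cytoplasm, against 226, 131 and 254 in K700E nuclei. In WT cells NSD1 was at 331, 305 and 268 CPM in the cytoplasm, against 266, 197 and 245 in the nuclei. In WT cells each cytoplasmic value of NSD1 was above each nuclear one, while in K700E cells they overlapped. The difference of NSD1 was 0.44 (-0.07 to 0.95) in K700E cells and 0.35 (-0.15 to 0.86) in WT cells (edgeR adjusted p = 0.117 and 0.202). The K700E difference of NSD1 was 0.67 without nuclear library 3 (adjusted p = 0.0388) and 0.22 without nuclear library 2 (adjusted p = 0.386). With the length trend removed NSD1 was higher in the cytoplasm relative to transcripts of similar length. The difference was then 1.05 in K700E cells (edgeR adjusted p = 0.000553) and 0.89 in WT cells (adjusted p = 0.00202). With library size as the only scaling, which moved the median of all genes by -0.41 in K700E and -0.52 in WT cells, SETD2 was at -0.27 and -0.38 and NSD1 at -0.0016 and -0.16 in K700E and WT cells.

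By the edgeR fit on all 12 libraries, NSD2 and NSD3 lay between these and the KMT2 genes. NSD2 was at 301, 326 and 331 CPM in K700E cytoplasm, against 439, 309.9 and 452 in K700E nuclei. In WT cells NSD2 was at 300.2, 302 and 290.5 CPM in the cytoplasm, against 396, 476 and 441 in the nuclei. Relative to its mean NSD2 had the smallest spread of the 10 genes in the cytoplasm, with a coefficient of variation of 5.06% in K700E and 2.08% in WT cells. The difference of NSD2 was -0.33 ± 0.19 in K700E cells (edgeR adjusted p = 0.147) and -0.56 ± 0.19 in WT cells (adjusted p = 0.0183). In K700E cells NSD2 was called lower in 6 of 13 other settings and not called in 7. The 6 included the GC trend removed (-0.80, edgeR adjusted p = 0.000116) and the DESeq2 Wald test (-0.44, adjusted p = 0.029). The K700E value of NSD2 was -0.46 without nuclear library 2 (adjusted p = 0.0411), and -0.20 and -0.19 without nuclear libraries 1 and 3 (adjusted p = 0.45 and 0.445). The WT call of NSD2 was lost without any of the WT cytoplasmic libraries or WT nuclear libraries 2 or 3, where the value stayed between -0.55 and -0.45 (adjusted p = 0.0581 to 0.0651). Over 13 other settings the WT value of NSD2 ran from -1.08 to -0.42, called lower in 11 and not called in 2. NSD3 (ENSG00000147548.17), on chromosome 8 from 38269697 to 38382272 on the minus strand, was at 276, 220.4 and 184 CPM in K700E cytoplasm, against 291, 322 and 269.5 in K700E nuclei. In WT cells NSD3 was at 186, 209.5 and 179 CPM in the cytoplasm, against 251, 179 and 278 in the nuclei. Both constructs overlapped between fractions, and the difference of NSD3 was -0.37 ± 0.22 in K700E cells (edgeR adjusted p = 0.134) and -0.30 ± 0.22 in WT cells (adjusted p = 0.224). NSD3 was called lower in both constructs with library size alone (-0.79 in K700E and -0.82 in WT cells), upper quartile factors (-0.73 and -0.67), a filter of 1 CPM (-0.69 and -0.62) and the GC trend removed (-0.48 and -0.56). Its value was -0.21 without K700E cytoplasmic library 3 and -0.12 without WT nuclear library 3.

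In all, 5 of the 10 genes fell in K700E cytoplasm and 7 of 10 in WT cytoplasm, and none rose in either. Among all 20394 genes tested, 37.9% fell and 28.1% rose in K700E cytoplasm, and 40.0% fell and 27.1% rose in WT cytoplasm. Among 13892 protein-coding genes the shares were 27.4% lower and 36.6% higher in K700E cells, and 29.5% lower and 35.4% higher in WT cells. Among the 1023 of these with a transcript over 8 kb, 43% were lower and 17.8% higher in K700E cells. In WT cells 40% of the 1023 were lower and 18.9% higher. The transcripts of KMT2E and NSD2 are shorter than that, at 6.87 and 7.83 kb. The median difference of the 10 genes was -0.64 in K700E cells and -0.79 in WT cells. It was -0.29 and -0.40 over all genes, 0.19 and 0.14 over protein-coding genes, and -0.46 and -0.40 over those with a transcript over 8 kb. Placed among the protein-coding genes, from the lowest ratio up, KMT2C stood at percentile 14.2 in K700E cells and 19.5 in WT cells and KMT2A at 18.8 and 18.1. SETD2 stood at 49 and 50, and NSD1 at 56.5 and 55.8. Across alternative settings the number called ran from 4 to 8 in K700E cells and from 5 to 8 in WT cells.

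**Figure D1:**
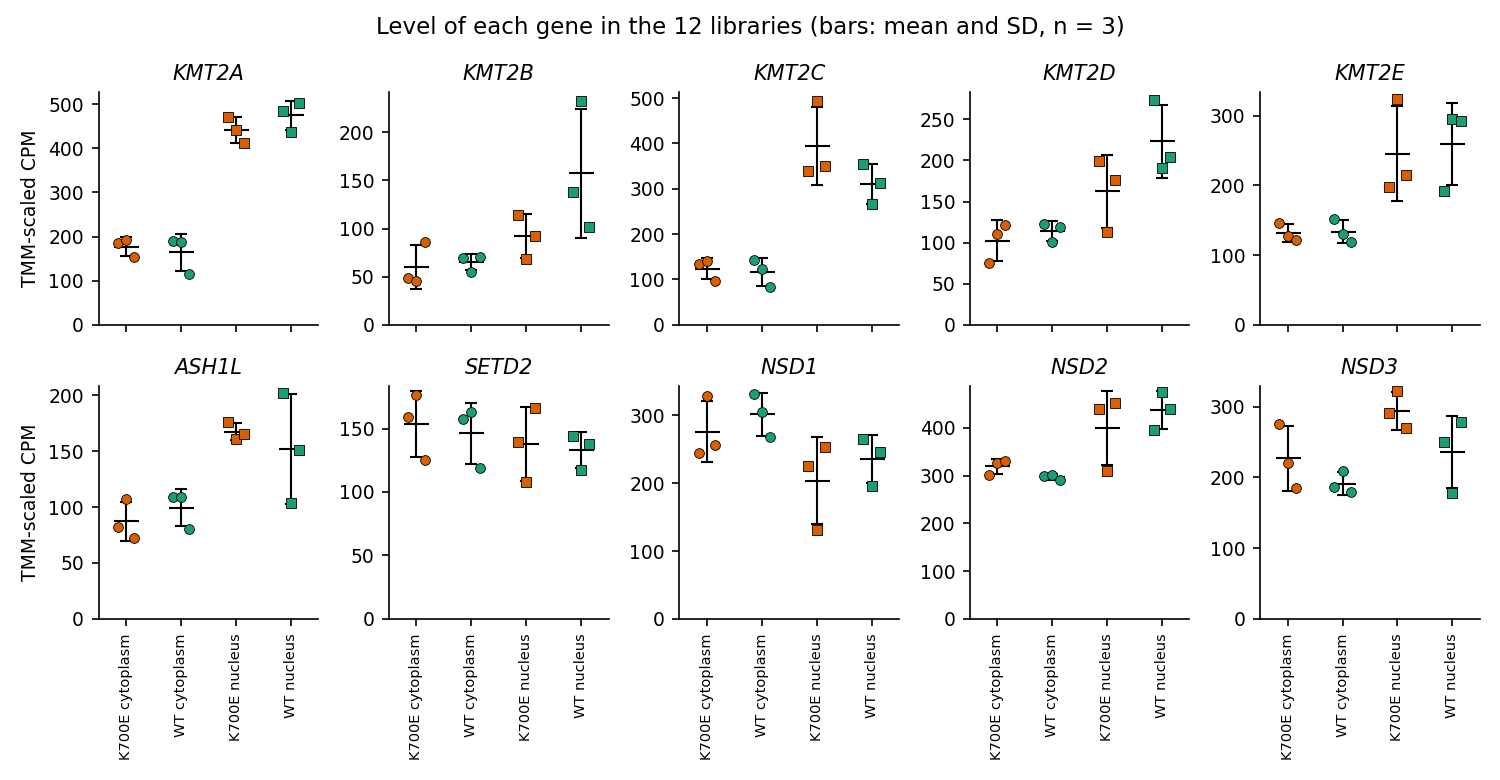
Level in TMM-scaled CPM (vertical axes, from 0) of each gene in the 12 libraries, with 1 point per library and the mean and SD of 3 libraries in black. The cytoplasmic points of KMT2A, KMT2C and KMT2E lie below all nuclear points of the same construct, while those of SETD2 lie among them.

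**Figure D2:**
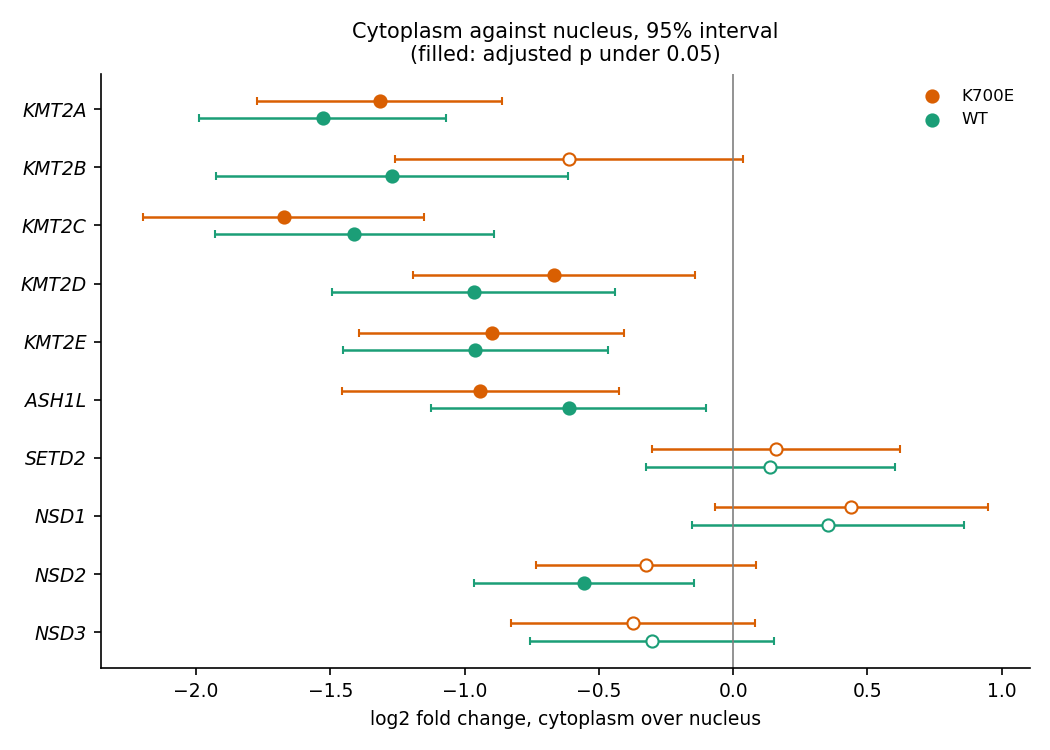
Log2 fold change of cytoplasm over nucleus for each gene, with 95% intervals from the edgeR fit, K700E in orange above WT in green; filled points passed an adjusted p of 0.05. The points run from -1.67 for KMT2C in K700E cells to 0.44 for NSD1 in K700E cells, and 5 K700E and 7 WT points are filled.

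Levels per kb of transcript put NSD2 first in all 4 groups and KMT2D last in all 4. In K700E cytoplasm the order was NSD2 (40.8 CPM per kb), NSD1 (21.4), NSD3 (21.1), KMT2E (19.2), SETD2 (18.9), KMT2A (10.7), KMT2C (7.32), ASH1L (7.30), KMT2B (7.09) and KMT2D (5.28). Only NSD2 against NSD1, SETD2 against KMT2A and KMT2A against KMT2C were neighbours whose library ranges did not overlap. In WT cytoplasm the order was NSD2 (38.0), NSD1 (23.4), KMT2E (19.4), SETD2 (18.0), NSD3 (17.8), KMT2A (9.90), ASH1L (8.33), KMT2B (7.70), KMT2C (6.93) and KMT2D (5.88), with gaps after NSD2 and after NSD3. In K700E nuclei the order was NSD2 (51.1), KMT2E (35.8), NSD3 (27.3), KMT2A (26.6), KMT2C (23.4), SETD2 (16.9), NSD1 (15.8), ASH1L (14.0), KMT2B (10.8) and KMT2D (8.38), with a gap after ASH1L alone. In WT nuclei it was NSD2 (55.9), KMT2E (37.8), KMT2A (28.6), NSD3 (21.9), KMT2B (18.6), KMT2C (18.4), NSD1 (18.3), SETD2 (16.3), ASH1L (12.7) and KMT2D (11.5), with gaps after NSD2 and after KMT2A. All other neighbours had overlapping ranges. KMT2A and KMT2C thus ranked higher in nuclei than in cytoplasm, and NSD1 and SETD2 lower. These places depend on the length taken. The coding transcript of NSD2 is 7.83 kb and its merged exons are 19.8 kb. Per kb of merged exons NSD1 was first in the cytoplasm (17.8 in K700E and 19.5 in WT cells) and KMT2E in the nuclei (26.6 and 28.2), and KMT2A, at 5.26, was below KMT2D, at 5.57, in WT cytoplasm.

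The ratio varied with the number of exons and with the length of the coding sequence. Over the 10 genes the Spearman correlation of exon number with the cytoplasm-to-nucleus difference was -0.80 in K700E cells and -0.89 in WT cells (Pearson -0.68 and -0.69). It was -0.61 and -0.64 for the length of the coding sequence, and -0.41 and -0.39 for transcript length. These are descriptions over 10 genes measured in the same libraries, and genes are not independent replicates. Over 13892 protein-coding genes the correlation with exon number was -0.33 in K700E and -0.32 in WT cells. With the length of the coding sequence it was slightly stronger, at -0.36 and -0.35, and with transcript length it was -0.19 and -0.14. Protein-coding genes with 1 to 5 exons had a median difference of 0.89 in K700E and 0.80 in WT cells, and the 666 genes with over 30 exons had -0.93 and -1.01. Of those 666 genes, 58.3% fell in K700E cytoplasm and 63.1% in WT cytoplasm. Of 1324 genes with 21 to 30 exons, 46.5% and 48.4% fell. Among transcripts over 8 kb alone, the medians were -0.15 and -0.06 with 1 to 10 exons (297 genes), -0.08 and 0.04 with 11 to 20 (274 genes), -0.60 and -0.50 with 21 to 30 (156 genes), and -1.12 and -1.09 with over 30 (296 genes), in K700E and WT cells. The 4 genes with over 30 exons, KMT2A, KMT2B, KMT2C and KMT2D, had differences of -1.32, -0.61, -1.67 and -0.67 in K700E cells and of -1.53, -1.27, -1.41 and -0.97 in WT cells. KMT2A and KMT2C were below the median of their exon class in both constructs and KMT2D was above it in both.

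**Figure D3:**
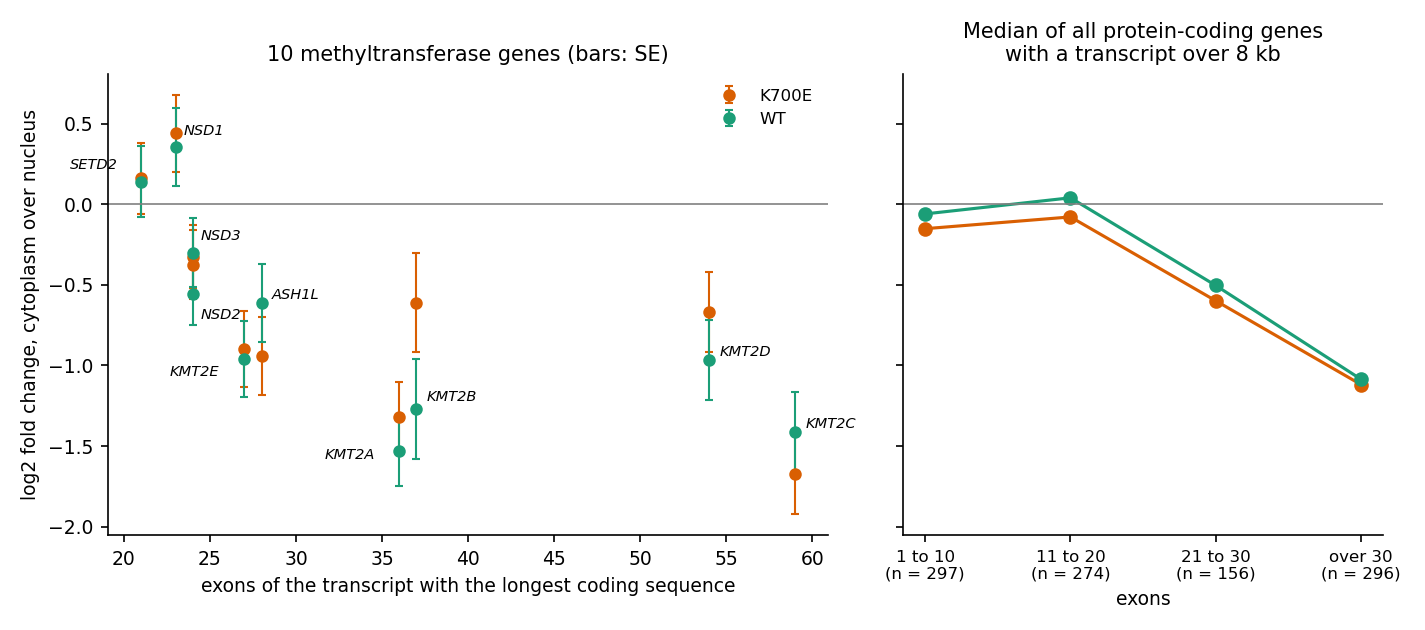
Left, log2 fold change of cytoplasm over nucleus (vertical, with SE) against exon number for the 10 genes, K700E in orange and WT in green; right, the median of all protein-coding genes with a transcript over 8 kb in 4 classes of exon number. SETD2 with 21 exons and NSD1 with 23 lie above 0 and KMT2C with 59 lies at -1.67 and -1.41, and the class medians end at -1.12 in K700E and -1.09 in WT cells.

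Ratios of related genes within a library do not depend on its scaling. The log2 ratio of NSD2 to NSD1 was 0.30, -0.01 and 0.37 in K700E cytoplasm, against 0.96, 1.24 and 0.83 in K700E nuclei. In WT cells it was -0.14, -0.01 and 0.12 in the cytoplasm, against 0.58, 1.27 and 0.84 in the nuclei. The ratio was lower in every cytoplasmic library than in any nuclear one of the same construct, with mean differences of -0.79 in K700E and -0.91 in WT cells. The log2 ratio of SETD2 to ASH1L was 0.96, 0.73 and 0.78 in K700E cytoplasm, against -0.34, -0.58 and 0.0038 in K700E nuclei. In WT cells it was 0.53, 0.58 and 0.56 in the cytoplasm, against -0.49, 0.18 and -0.13 in the nuclei. It was higher in every cytoplasmic library than in any nuclear one, by 1.13 in K700E and 0.70 in WT cells. With 3 against 3 libraries a two-sided exact permutation test cannot go below p = 0.1, which these 4 comparisons reached (adjusted p = 0.25 over 20 tests of 5 pairs), as did 8 of the 20 tests in all. The ratio of KMT2D to KMT2C reached the same p = 0.1 by exact permutation for K700E nuclei against WT nuclei, with a difference of -0.81 and no overlap. It was -0.77, -2.13 and -0.99 in K700E nuclei, against -0.37, -0.48 and -0.61 in WT nuclei, so K700E library 2 lay farthest out. That library also had values that fell with GC content, and the transcript of KMT2D has 59.1% GC, more than that of KMT2C; the part of this in the ratio was not tested.

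Between K700E and WT cells, none of the 10 genes passed the threshold in either fraction. In the nuclei 0 of 20394 genes were called (0% of them), 1389 had an unadjusted p under 0.05, and DESeq2 called 1. In the cytoplasm 1 gene was called (0.00490%), an ID without a symbol and no member. KMT2B was lowest in K700E nuclei relative to WT nuclei, at -0.78 ± 0.31 (95% interval -1.42 to -0.13; unadjusted p = 0.0218, edgeR adjusted p = 0.659). KMT2D followed at -0.46 (-0.98 to 0.07), and KMT2C and NSD3 were at 0.34 (-0.17 to 0.85) and 0.32 (-0.14 to 0.77). The other 6 ran from -0.21 for NSD1 to 0.14 for ASH1L. In the cytoplasm the differences ran from -0.19 (-0.70 to 0.32) for ASH1L to 0.25 (-0.21 to 0.70) for NSD3, each with an edgeR adjusted p of 1. A missed threshold does not show that levels were alike, and the intervals give the sizes that remain possible.

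**Figure D4:**
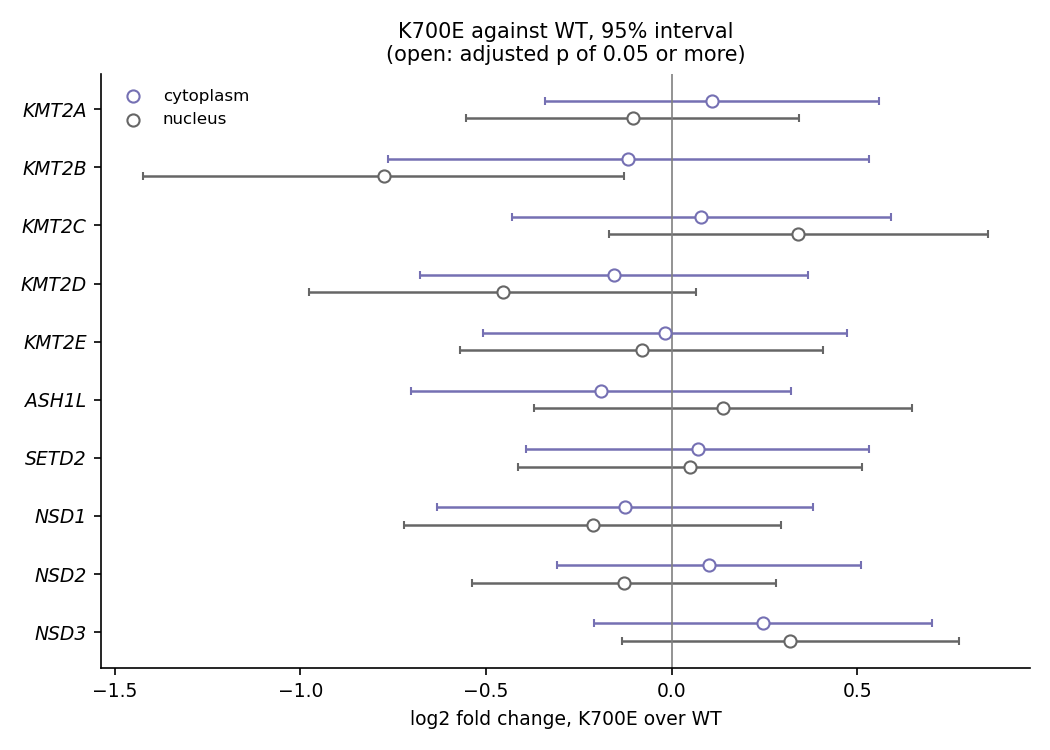
Log2 fold change of K700E over WT for each gene in the cytoplasm (purple) and the nucleus (grey) with 95% intervals; open points did not pass an adjusted p of 0.05. All 20 points are open, and KMT2B in the nucleus, at -0.78, is the farthest from 0.

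Libraries 2 of the nuclei differed from the others in their relation to GC content, and several nuclear differences depended on them. The transcript of KMT2B has 63.5% GC and that of KMT2D 59.1%, the highest of the 10 genes, the others running from 42.0% to 51.6%. K700E nuclear library 2 had lower values at higher GC content, by -0.36 log2 per 10% GC, and WT nuclear library 2 had higher ones, by 0.54, while the other 10 libraries lay between -0.21 and 0.25. KMT2B was at 68.7 CPM in K700E nuclear library 2, the lowest of its group, and at 232 CPM in WT nuclear library 2, the highest of its group. KMT2D was likewise lowest in K700E nuclear library 2, at 113 CPM, but it was also lowest of its group in WT nuclear library 2, at 191 CPM. With the GC trend of each library removed the nuclear difference of KMT2B was -0.25 (edgeR adjusted p = 0.964) and that of KMT2D -0.16 (adjusted p = 0.978). Without both of these libraries, an alternative chosen after the data were seen, KMT2B was at -0.21, KMT2D at -0.35, KMT2C at 0.05 and NSD3 at 0.09. Without K700E nuclear library 2 alone KMT2B was at -0.60 and KMT2D at -0.24, and without WT nuclear library 2 alone they were at -0.38 and -0.55.

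**Figure D5:**
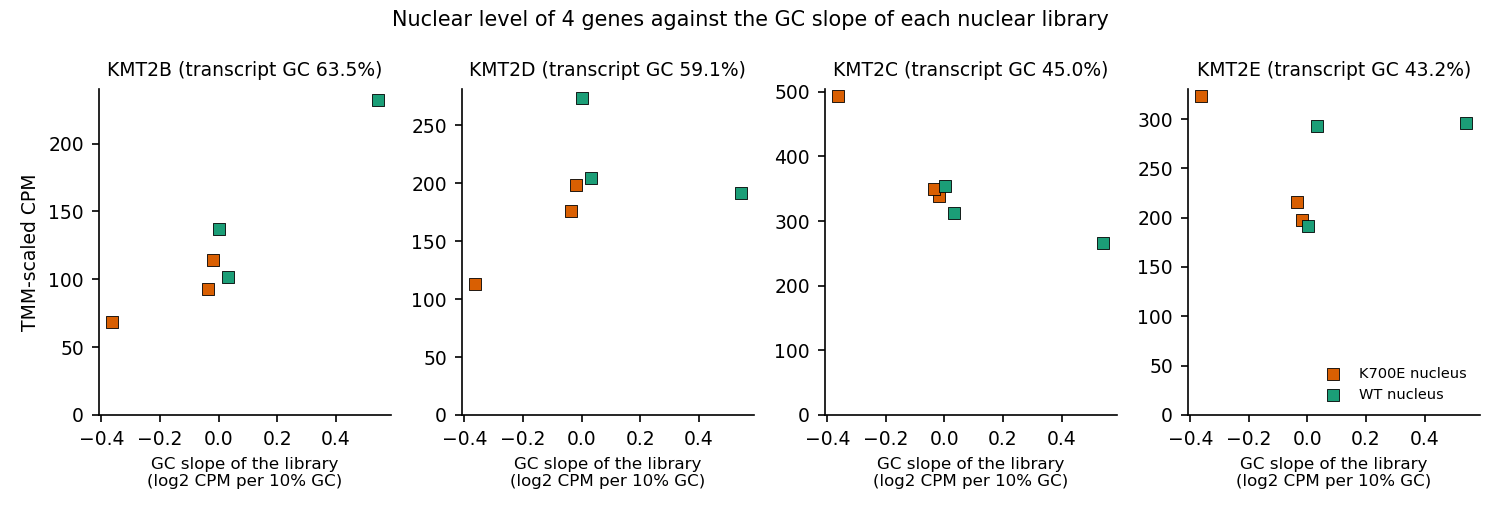
Nuclear level in TMM-scaled CPM (vertical, from 0) of KMT2B, KMT2D, KMT2C and KMT2E in the 6 nuclear libraries against the GC slope of each library (log2 CPM per 10% GC), K700E in orange and WT in green. KMT2B is at 68.7 CPM in the library with the slope of -0.36 and at 232 CPM in the one with 0.54, and KMT2C is highest, at 493 CPM, where the slope is lowest.

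The series title names export of mRNA, which these counts do not measure. How the ratio of cytoplasm to nucleus differed between constructs, a comparison of shares at 48 h, passed the threshold for no gene. Of 20394 genes 0 were called (0%), 672 had an unadjusted p under 0.05, and DESeq2 called 3. The ratio of KMT2B was 0.66 higher in K700E than in WT cells (95% interval -0.26 to 1.57; unadjusted p = 0.147, edgeR adjusted p = 0.98), and that of KMT2D 0.30 (-0.44 to 1.04). The ratio of ASH1L differed by -0.33 (-1.05 to 0.39) and that of KMT2C by -0.26 (-0.98 to 0.46). KMT2A was at 0.21, NSD2 at 0.23, NSD1 at 0.09, KMT2E at 0.06, SETD2 at 0.02 and NSD3 at -0.07. With the GC trend removed the change was 0.08 for KMT2B and 0.01 for KMT2D, and without both nuclear libraries 2 it was 0.09 for KMT2B, 0.19 for KMT2D, -0.14 for ASH1L and 0.03 for KMT2C. Leaving out 1 library put KMT2B as low as 0.26 (without WT nuclear library 2) and KMT2D between 0.09 (without K700E nuclear library 2) and 0.48 (without K700E cytoplasmic library 1). The signs were mixed, 7 positive and 3 negative, and the median of 0.07 compares with 0.05 over all genes. A gene called in WT cells and not in K700E cells, as KMT2B and NSD2 were, is therefore not shown to differ between the constructs.

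The lists of related genes are to be read against all protein-coding genes, of which 36.6% rose and 27.4% fell in K700E cytoplasm and 35.4% rose and 29.5% fell in WT cytoplasm. Of 17 partner genes of the KMT2 complexes, 9 rose and 3 fell in K700E cytoplasm and 8 rose and 3 fell in WT cytoplasm, with a median of 0.71 and 0.44. WDR82, which tethers the related SET1 complexes to RNA polymerase II, rose by 2.65 ± 0.26 in K700E and 2.75 ± 0.26 in WT cytoplasm (edgeR adjusted p = 4.16e-07 and 3.04e-07). DPY30 rose by 2.20 and 2.43, ASH2L by 1.67 and 1.75 and RBBP5 by 1.38 and 1.35, the 3 of them core subunits. KDM6A, the demethylase of the KMT2C and KMT2D complexes, fell and was at -1.37 in K700E and -1.09 in WT cells. Of 24 other lysine methyltransferase genes tested, 7 rose and 7 fell in K700E cytoplasm and 9 rose and 9 fell in WT cytoplasm. KMT5A, which monomethylates histone H4, rose by 1.31 in K700E and rose in WT cytoplasm too, and EZH1, an enzyme of Polycomb complexes, fell and was at -1.53 and -1.72. Of 31 other large chromatin regulators, 16 fell and 4 rose in K700E cytoplasm and 13 fell and 4 rose in WT cytoplasm. Among them the remodellers CHD9, at -1.63 and -1.50, and CHD6, at -1.57 and -1.31, fell. Of 19 lysine demethylase genes, 4 rose and 4 fell in each construct. Of 10 readers of lysine 36 methylation, 4 rose in each and 3 fell in K700E and 4 in WT cytoplasm, and MSH6, the mismatch repair protein that binds this mark, rose by 1.47 and 1.64. Of 9 target genes of KMT2A, 3 rose and 3 fell in K700E cytoplasm and 4 rose and 3 fell in WT cytoplasm; CDKN2C rose by 1.89 and 2.01, HOXC8 fell and was at -2.42 and -2.91. In the comparisons of K700E with WT, no gene of these lists was called in either fraction.

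The 10 genes did not follow a single profile. Over the 12 libraries the Pearson correlation of each gene with the mean of the other 9 was 0.93 for KMT2A, 0.85 for ASH1L, 0.84 for KMT2C, 0.80 for NSD2, 0.77 for KMT2D, 0.64 for KMT2E, 0.51 for KMT2B, 0.42 for NSD3, -0.11 for SETD2 and -0.40 for NSD1. The 12 libraries fall into 2 fractions, a split that all these values share, and they are given as a description. Of 10958 other protein-coding genes averaging 5 CPM or more, those most like the mean profile of the group were TAF7L (r = 0.986), GON4L (0.970), MINAR1 (0.968), AKAP13 (0.968) and LRP8 (0.966).

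Neighbouring genes and copies bear on what was counted, since the strand setting of the counting is not given in the sources used here. Of the exon bases of KMT2A, 17.9% are shared on the same strand with another annotated protein-coding gene, and how reads there were counted is not known. NSD3 shares 3.57% of its exon bases with DDHD2 on the opposite strand. KMT2E-AS1 had 6 to 22 counts in cytoplasmic libraries and 33 to 69 in nuclear ones, against 1576 to 3749 for KMT2E. ASH1L-AS1 had 31 to 64 counts in cytoplasmic and 41 to 81 in nuclear libraries. The 5 KMT2C pseudogenes had 0 to 3 counts in a library.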

How the data were processed

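The authors' deposited files give whole-number counts per gene, 1 file per library, with 67049 gene IDs each. HISAT2 and DESeq are named, without versions, per the submitters' processing notes; the counter, its strand setting, the build and the annotation were not given in the sources used here. IDs were matched without version to symbols (60463) and to GENCODE 29 on GRCh38 (58381 IDs, 99.7% of counts), which gave coordinates, exons, lengths and GC content of the transcript with the longest coding sequence. No pair of libraries had identical counts. Promoter sequences are from RefSeq.

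edgeR 4.0.16 (R 4.3.3) gave quasi-likelihood F tests over all 12 libraries, with 1 term per group, TMM factors, filterByExpr at a count of 10 and a total of 15, and Benjamini-Hochberg adjustment over 20394 genes; adjusted p under 0.05 was called. The SE was taken from the fold change and its F value, and the interval from its degrees of freedom at 95%. Pair ratios used a pseudocount of 0.5 and exact permutation. The fit was run on simulated counts in which few genes, as many up as down, differed, in WT cytoplasm only. That run does not check the scaling where many genes differ unevenly. The 10 genes and the 11 lists were chosen with earlier results of these data known. Named are all 10 genes, up to 4 genes of each list with the smallest p in a comparison, the 5 genes most like the mean profile, SF3B1, MALAT1 and NEAT1. Alternatives were DESeq2 1.42.0, limma 3.58.1 voom, other scalings and filters, GC and length trends, replicate blocks, only the libraries compared and each library left out.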

Additional observations from a re-analysis of the deposited data

How the results depend on the processing

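Of the 10 genes, 8 were called in K700E cells in place of 5 with library size alone, upper quartile factors, a filter of 1 CPM in all 12 libraries, the GC trend removed with or without the replicate block, or the DESeq2 Wald test. The genes added in each of these settings were KMT2B, NSD2 and NSD3. In WT cells these settings called 7 or 8. Over all genes these settings, the filter of 1 CPM apart, called 8291 to 9460 lower in K700E cells, in place of 7725. In WT cells they called 8537 to 10263 lower, in place of 8163. The filter of 1 CPM kept fewer genes to test and called 3938 and 4074 lower. KMT2D changed sign to 0.37 in K700E cells with the length trend removed and was then not called (edgeR adjusted p = 0.207). The cause was not tested. Removing the length trend called 4 of the 10 genes in K700E cells, 3 of them lower, and 5 in WT cells, 4 of them lower. Of all 20394 genes, 8919 were then called lower in K700E and 9250 in WT cells. NSD1 was then higher in both, relative to transcripts of similar length. KMT2A, KMT2C and KMT2E were called lower in both constructs under every setting run, though with the length trend removed KMT2A was at -0.45 in K700E and -0.77 in WT cells and KMT2C at -0.79 and -0.64. SETD2, NSD1 and NSD3 changed sign under some settings, where they lay between -0.38 and 0.08 and were not called (lowest adjusted p = 0.145).

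The filter of 1 CPM called 7889 genes in K700E and 7941 in WT cells, against 13448 and 13680. It kept fewer genes to test, so these counts are not shares of the same genes. Its split was 3951 higher and 3938 lower in K700E and 3867 and 4074 in WT cells. With library size alone the split was 4215 and 9460, and 3775 and 10263. For K700E against WT, no filter beyond 1 count, which kept more genes to test, called 36 genes in the nucleus and 85 in the cytoplasm. It called 31 for the change of the ratio, and DESeq2 called 1, 13 and 3. In the cytoplasm limma voom, only the libraries compared, and the removal of both nuclear libraries 2 called 0. Leaving out 1 library called 0 to 1 genes in the nucleus (1 without WT nuclear library 2), 0 to 2 in the cytoplasm (2 without K700E cytoplasmic library 1 or 2, and 0 without any WT cytoplasmic library, K700E cytoplasmic library 3, WT nuclear library 3 or K700E nuclear library 2 or 3) and 0 to 1 for the ratio (1 without K700E cytoplasmic library 2). None of these settings called any of the 10 genes between constructs.

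Deviations of same-numbered libraries correlated from -0.25 to 0.43. The highest values were 0.43 for WT and K700E nuclear libraries 1 and 0.34 for WT and K700E cytoplasmic libraries 3. Correlations between libraries of different numbers were not computed, so whether the numbers pair the libraries was not tested. A replicate block by number called 5 of the 10 genes in K700E and 7 in WT cells, and 0 genes between constructs in the cytoplasm; with the GC trend removed as well it called 2. A replicate block by construct and number called 5 and 6. Over all genes the block by number called 7696 lower in K700E and 8084 in WT cells. With the block by construct and number these counts were 7349 and 7667.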
